A study of Mus musculus with 9 samples.

Results

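The osteoclast acid phosphatase TRAP (gene Acp5) and 9 cathepsin genes (Ctsk, Ctsa, Ctsb, Ctsc, Ctsd, Ctsh, Ctsl, Ctss and Ctsz) were followed in RNA sequencing of mouse bone marrow-derived macrophages (BMDMs), the precursors from which osteoclasts form. They were taken by symbol from the deposited gene table, where they are 10 of 28379 genes, and all 10 were among the 17002 genes that passed the filter on low counts. The cells were primary, from the marrow of young adult C57BL/6J mice without any transgene, and every culture held M-CSF (20 ng/ml), the growth factor on which macrophages depend. Cells of the PBS group had M-CSF alone. RANKL (100 ng/ml), the cytokine that drives osteoclast formation, was added in the RANKL group, and in RANKL + Vit D + K it was joined by vitamin D (calcitriol, 1000 nM) and vitamin K (menaquinone-4, 20 μM by the labels, while the methods of the study state a different concentration). Cells were harvested after 48 h, and each group had 3 libraries. The methods speak of pooled RNA, and no source used here ties a library to its own mouse or culture, so the p-values measure the spread between these libraries, which may be technical. The vitamins were given together, so their separate effects cannot be told apart in these libraries.

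Cathepsins are proteases of lysosomes, made as inactive proenzymes and activated at acid pH. Most are cysteine proteases, whereas cathepsin D is an aspartic protease and cathepsin A a serine carboxypeptidase. The osteoclast secretes acid, cathepsin K and TRAP into the sealed space between the cell and bone, where cathepsin K cuts type I collagen. The other cathepsins are general enzymes of protein breakdown in macrophage lysosomes.

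The total count per library lay between 65915112 and 68229647, so that 3 counts were at most 4.55e-06% of a library. Replicate 2 stood apart in every group. The chi-square per degree of freedom over genes was 68.2 and 74.9 between PBS replicate 2 and the other PBS libraries and 28.9 between those, and for the RANKL libraries these values were 136, 158 and 24.6. For RANKL + Vit D + K they were 437, 282 and 49.5. Each comparison was therefore also made without replicate 2 of all groups, a choice made after seeing the data. Of the macrophage markers (5 genes), the summed FPKM was 26227 to 30431 in PBS, 16574 to 24142 in RANKL and 4479 to 11498 in RANKL + Vit D + K, and Csf1r and Cd68 were present in every library. Csf1r was lower in RANKL than in PBS (log2 -0.94, adjusted p = 0.0484), where the other 4 did not pass. Most of this sum was Lyz2 (3189 to 10168 with the vitamins). Csf1r, Adgre1 and Lyz2 were lower with the vitamins than with RANKL (log2 -1.45, -0.78 and -1.61), whereas Cd68 was higher (log2 0.53, adjusted p = 0.0143) and Itgam did not pass (log2 -0.33, adjusted p = 0.115). The summed FPKM of 7 osteoclast markers was 3.82 to 6.17, 99.7 to 305 and 24.2 to 60.4 in the same order, with Calcr at 0 in all PBS and all RANKL + Vit D + K libraries. Most of the sum in RANKL was Mmp9 (67.2 to 228). In RANKL + Vit D + K most of it was Atp6v0d2 (12.4 to 38.8) and Itgb3 (3.83 to 18.5), and Oscar was at most 0.063. With the vitamins against RANKL, 5 of the 7 were lower, Atp6v0d2 did not pass (log2 -0.23, adjusted p = 0.701) and Itgb3 was higher (log2 2.08, adjusted p = 0.0186). That of 8 neutrophil markers was 11.1 to 128, 11.3 to 148 and 0.551 to 1.72, with Mpo, Elane, Camp, Ltf and Ly6g at 0 in all RANKL + Vit D + K libraries. B cell markers summed to at most 0.795, stromal markers to at most 0.576, dendritic cell markers to at most 0.356 and megakaryocyte markers to 3.39 to 30.6, while none of the 3 T cell markers was in the table. The part of these shifts in the results below was not tested. In bulk RNA, fewer cells of a type and less RNA per cell cannot be told apart.

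Acp5 and Ctsk, the pair of osteoclast enzymes, were low in PBS, high with RANKL and low again with the vitamins. FPKM (fragments per length of transcript and per size of library) of Acp5 in replicates 1, 2 and 3 was 4.06, 4.94 and 3.59 in PBS, 223, 271 and 161 in RANKL, and 1.02, 7.86 and 1.56 in RANKL + Vit D + K. All RANKL libraries lay far above all others, and the vitamin libraries fell on both sides of the PBS libraries. FPKM of Ctsk was 10.1, 11.4 and 7.00 in PBS, 251, 426 and 214 in RANKL, and 32.6, 57.4 and 26.0 in RANKL + Vit D + K. For Ctsk no groups overlapped, and the vitamin libraries stood between PBS and RANKL. In both genes replicate 2 was the highest library of all 3 groups.

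The promoters of the pair are shown because these genes moved most. RefSeq (GRCm38.p6) gave start sites for 8 of the 10 genes, in 11 windows, and none for Ctsb and Ctsh. The windows hold the 250 bases before a start, read 5′ to 3′ on the strand of the gene, and some of these starts lie inside the gene of the deposited table. Ctsk is on the plus strand (gene at chr3:95499256-95509362 in the deposited table), and its window is chr3:95498960-95499209. Capitals mark GAGGAA on either strand, the core of the site bound by the myeloid factor PU.1 (gene Spi1), 233 and 58 bases before the start. Acp5 is on the minus strand (chr9:22126727-22135711) with 3 listed starts, and the window shown, chr9:22130599-22130848, which is inside the gene of the table, holds CATGTG, an E-box form that MITF binds, read here from the other strand, 90 bases before the start in capitals.
Ctsk: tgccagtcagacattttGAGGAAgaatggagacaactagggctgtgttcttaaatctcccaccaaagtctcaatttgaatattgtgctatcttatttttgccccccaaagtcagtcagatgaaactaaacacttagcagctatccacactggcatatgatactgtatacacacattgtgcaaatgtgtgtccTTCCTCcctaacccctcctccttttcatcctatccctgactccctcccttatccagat
Acp5: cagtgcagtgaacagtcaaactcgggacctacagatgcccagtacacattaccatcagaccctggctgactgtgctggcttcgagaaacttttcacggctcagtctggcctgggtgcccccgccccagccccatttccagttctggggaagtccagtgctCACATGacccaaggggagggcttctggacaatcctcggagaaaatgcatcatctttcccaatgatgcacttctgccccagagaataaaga
Of 32851 RefSeq windows of this length, 23.3% held GAGGAA and 12.3% held CATGTG on either strand. CATGTG was not in the other 2 Acp5 windows nor in that of Ctsk. GAGGAA also occurred before Ctsc (196 and 149 bases) and Ctss (164 bases). TGANTCA, the letters of the AP-1 site, was in 6.75% of all windows and in none of the 11. GGAAA, the core letters of NFAT sites, which can overlap GAGGAA, was in 55.6% of all windows on either strand. It occurred 2, 1 and 1 times in the Acp5 windows and not in the Ctsk window.

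With RANKL, Acp5 rose 47.4-fold and Ctsk 28.4-fold. Of the 10 genes, 2 were higher in RANKL than in PBS (Acp5 and Ctsk) and 2 lower (Ctsb and Ctsd) by edgeR's quasi-likelihood test at an adjusted p under 0.05. Over all genes tested, 2.35% were called higher and 1.26% lower. The median log2 fold change was -0.08 over the 10 genes and -0.04 over all genes. The FPKM ranges of PBS and RANKL did not overlap for 6 of the 10 (Acp5, Ctsk, Ctsb, Ctsc, Ctsd and Ctsh), a property of 35.2% of all genes tested. The log2 fold change of Acp5 was 5.57 ± 0.69 (SE, adjusted p = 0.00514) and that of Ctsk 4.83 ± 0.35 (adjusted p = 0.00037).

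Ctsb and Ctsd, among the most abundant lysosomal proteases here, were lower with RANKL than with PBS. FPKM of Ctsd, the aspartic protease, was 3167, 3821 and 3524 in PBS, 2386, 1908 and 2260.45 in RANKL, and 2954, 2752 and 2692 in RANKL + Vit D + K. FPKM of Ctsb, a cysteine protease that also trims peptides from their ends, was 1084, 1531 and 1052 in PBS, 842, 814 and 744 in RANKL, and 1043, 1101 and 928 in RANKL + Vit D + K. In both genes every RANKL library was below every PBS library and below every vitamin library. With RANKL, Ctsd fell 1.74-fold (log2 -0.80 ± 0.15, adjusted p = 0.0255) and Ctsb 1.66-fold (log2 -0.73 ± 0.15, adjusted p = 0.0364). When a library was left out alone, the log2 values stayed between -0.88 and -0.68 for Ctsd and between -0.79 and -0.50 for Ctsb. Both calls were lost without any of the 6 PBS and RANKL libraries, with adjusted p up to 0.103 for Ctsd and 0.117 for Ctsb, that of Ctsb was also lost without RANKL + Vit D + K replicate 3 (adjusted p = 0.0716), and both were called without replicate 2 of all groups (adjusted p = 0.00818 and 0.0169). Both were also lost with limma on log2(FPKM + 1) or log2(FPKM + 0.1) (adjusted p 0.0697 and 0.0821 for Ctsd, 0.094 and 0.0996 for Ctsb), and that of Ctsb with no filter on low counts (adjusted p = 0.0697).

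The other 6 genes did not pass the test between RANKL and PBS. Ctsh, an aminopeptidase of lysosomes, had a log2 fold change of -0.66 ± 0.23 (adjusted p = 0.163), and Ctsc, which activates serine proteases of granules, 0.37 ± 0.11 (adjusted p = 0.117). Without replicate 2 both passed, at -0.45 (adjusted p = 0.00942) and 0.36 (adjusted p = 0.0389). Ctsc also passed with only the 2 groups compared (adjusted p = 0.0466) and without RANKL + Vit D + K replicate 2 alone (adjusted p = 0.0435). Ctsa, Ctsl, Ctss and Ctsz had log2 fold changes of -0.13, 0.13, -0.13 and -0.03, with adjusted p from 0.657 to 0.949.

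**Figure D1:**
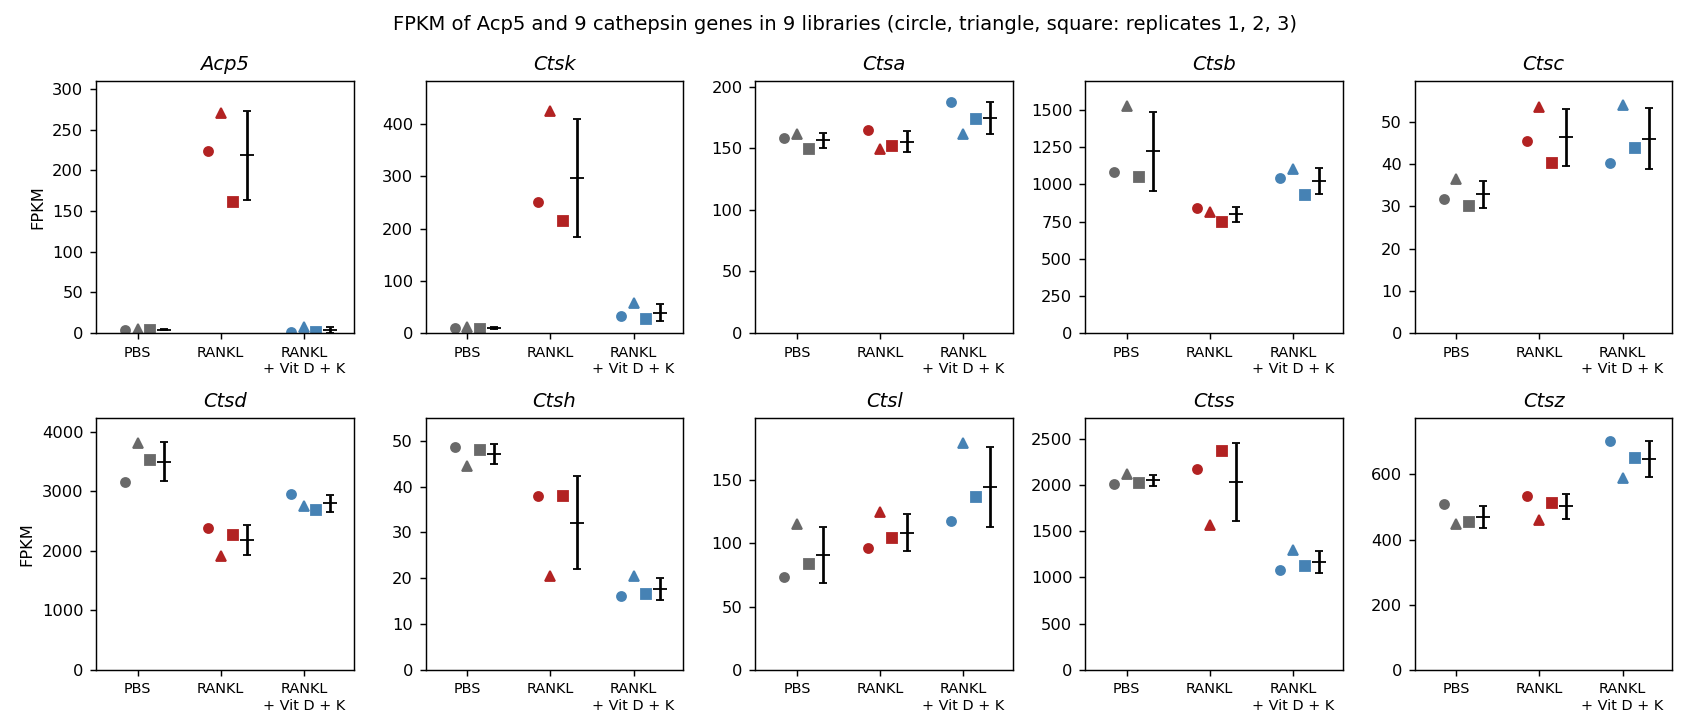
FPKM of Acp5 and 9 cathepsin genes (vertical axes from 0, a scale for each gene) in PBS, RANKL and RANKL + Vit D + K libraries. Points are libraries (circle, triangle and square for replicates 1, 2 and 3), and bars are the mean ± SD of 3. Acp5 and Ctsk are highest in RANKL, Ctsb and Ctsd dip there, and Ctsh and Ctss are lowest with the vitamins.

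With the vitamins added to RANKL, Acp5 fell 59.3-fold and Ctsk 6.98-fold, Ctsh and Ctss also fell, and Ctsb, Ctsd, Ctsl and Ctsz rose. Thus 4 of the 10 genes were higher and 4 lower, where 16.4% of all genes tested were called higher and 17.2% lower. With limma on log2(FPKM + 1) these 2796 and 2929 genes became 2215 and 3801, and the members called became 1 higher and 4 lower. The median log2 fold change of the 10 was 0.23, against -0.04 over all genes. FPKM ranges did not overlap for 7 of the 10, and for 46.2% of all genes. The 7 include Ctsh, separated only by 20.407 in RANKL replicate 2 against 20.402 in RANKL + Vit D + K replicate 2. The counts of these libraries were in the other order, 6860 against 7071. The RANKL libraries served in this comparison and in the one with PBS, so a RANKL library that reads high or low moves both. The log2 fold change of Acp5 was -5.89 ± 0.70 (adjusted p = 0.000881) and that of Ctsk -2.80 ± 0.32 (adjusted p = 0.000753). Both passed under every alternative tried, here and between RANKL and PBS, and without replicate 2 the Acp5 value was -7.03.

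Of the 10 genes, Ctss and Ctsh fell with the vitamins beside Acp5 and Ctsk. FPKM of Ctss, the protease that cleaves the invariant chain of MHC class II, was 2016, 2123 and 2023 in PBS, 2175, 1566 and 2374 in RANKL, and 1076, 1297 and 1126 in RANKL + Vit D + K. Every vitamin library was below every other library, and RANKL replicate 2 was the lowest RANKL library. The vitamins lowered it 1.59-fold against RANKL (log2 -0.67 ± 0.17, adjusted p = 0.0158), a call lost without RANKL replicate 1 (adjusted p = 0.0628) or RANKL replicate 3 (adjusted p = 0.0634). Ctss lies next to Ctsk on chromosome 3, on the same strand and 17423 bp further on (chr3:95526786-95556403), with no other gene of the table between them. FPKM of Ctsh was 48.6, 44.6 and 48.1 in PBS, 37.9, 20.41 and 38.0 in RANKL, and 16.0, 20.40 and 16.7 in RANKL + Vit D + K. RANKL replicate 2 of Ctsh lay at the level of the highest vitamin library, far below the other RANKL libraries. Ctsh fell 1.66-fold from RANKL to RANKL + Vit D + K (log2 -0.73 ± 0.23, adjusted p = 0.038). That call was lost when any library but RANKL replicate 2 or RANKL + Vit D + K replicate 2 was left out alone (adjusted p 0.0503 to 0.137), with the replicate number as a block (adjusted p = 0.052) and with only the 2 groups fitted (adjusted p = 0.0781), and without replicate 2 of all groups the value was -1.03 (adjusted p = 4.05e-05).

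Ctsl and Ctsz, cysteine proteases with endopeptidase and carboxypeptidase activity in that order, rose above RANKL with the vitamins. FPKM of Ctsl was 73.3, 115 and 83.8 in PBS, 96.4, 125 and 105 in RANKL, and 118, 179 and 136 in RANKL + Vit D + K. Its RANKL and vitamin libraries overlapped, and replicate 2 was the highest in all 3 groups. FPKM of Ctsz was 509, 447 and 455 in PBS, 534, 460.5 and 511 in RANKL, and 702, 589.8 and 649 in RANKL + Vit D + K. Here every vitamin library was above all the others. The rise was 1.46-fold for Ctsl (log2 0.55 ± 0.17, adjusted p = 0.0346) and 1.44-fold for Ctsz (log2 0.52 ± 0.15, adjusted p = 0.0262). Ctsb rose 1.42-fold (log2 0.50 ± 0.15, adjusted p = 0.0323) and Ctsd 1.42-fold (log2 0.51 ± 0.15, adjusted p = 0.0312), each from the low level of the RANKL libraries.

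When any 1 library was left out, the log2 values of these 4 rises were 0.44 to 0.56 for Ctsb and 0.39 to 0.59 for Ctsd. They were 0.45 to 0.63 for Ctsl and 0.41 to 0.65 for Ctsz. With limma on log2(FPKM + 1) the values were smaller, at 0.35 for Ctsb, 0.36 for Ctsd, 0.40 for Ctsl and 0.37 for Ctsz. The calls of these 4 rises did not all hold. None was called without RANKL replicate 1, without RANKL replicate 3 or without RANKL + Vit D + K replicate 3. Without RANKL replicate 2 or without RANKL + Vit D + K replicate 1 only that of Ctsl was, and that call was also lost without PBS replicate 3 or RANKL + Vit D + K replicate 2. Both limma fits ended the calls of Ctsb, Ctsd and Ctsl, no filter those of Ctsb and Ctsl, and fitting only the 2 groups those of Ctsd and Ctsz. Over the alternatives the highest adjusted p was 0.145 for Ctsb, 0.166 for Ctsd, 0.16 for Ctsl and 0.0717 for Ctsz, and no direction changed. Without replicate 2 of all groups all 4 passed, with adjusted p from 0.00181 to 0.0049.

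Ctsa and Ctsc did not pass between RANKL + Vit D + K and RANKL. FPKM of Ctsa, which also shields beta-galactosidase and neuraminidase in the lysosome, was 158, 161.41 and 149.6 in PBS, 165, 149.5 and 152 in RANKL, and 187, 161.63 and 174 in RANKL + Vit D + K. Its log2 fold change was 0.32 ± 0.13 (adjusted p = 0.0882), and without RANKL + Vit D + K replicate 2 it was 0.43 (adjusted p = 0.00705). Ctsa shares its interval on chromosome 2 with Pltp on the opposite strand, which had 5309 to 9103 counts in PBS, 11444 to 16696 in RANKL and 1943 to 3316 in RANKL + Vit D + K, or 2.94% to 28.7% of the counts of Ctsa in the same library. Whether the counting used the strand is not stated, so reads of the overlap cannot be assigned and the value of Ctsa is uncertain. The other overlapping genes had at most 4.95% of the counts of a member (Nelfcd, over Ctsz). FPKM of Ctsc was 31.8, 36.5 and 30.2 in PBS, 45.4, 53.5 and 40.2 in RANKL, and 40.2, 54.0 and 43.9 in RANKL + Vit D + K, so that both groups with RANKL lay above PBS and overlapped each other (log2 0.13 ± 0.11, adjusted p = 0.396).

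**Figure D2:**
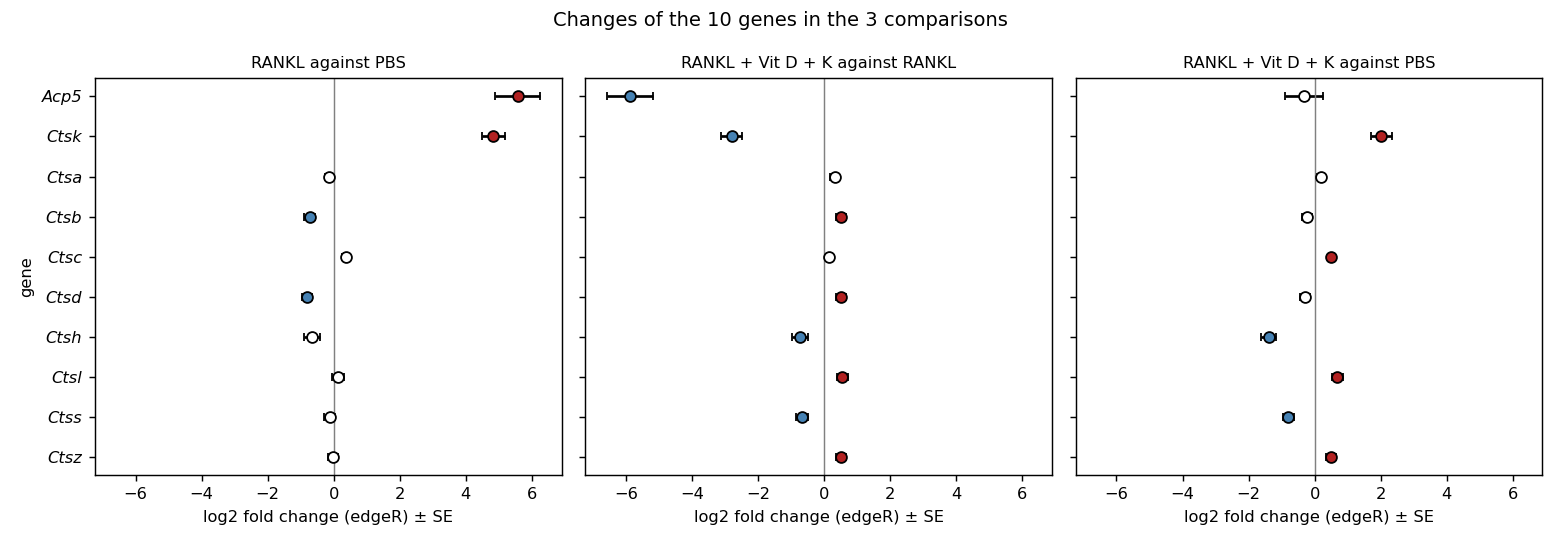
Log2 fold changes (horizontal axis, edgeR, bars ± SE) of the 10 genes (vertical axis) in the 3 comparisons. Red points passed as higher, blue points passed as lower (adjusted p under 0.05) and white points did not pass. Acp5 and Ctsk stand at 5.57 and 4.83 with RANKL and at -5.89 and -2.80 when the vitamins were added.

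Against PBS, the cells with RANKL and both vitamins had Ctsk higher, Ctsc, Ctsl and Ctsz higher, and had Ctsh and Ctss lower. These are 4 genes higher and 2 lower of the 10, where 19.8% of all genes were called higher and 21.0% lower. The median log2 fold change of the 10 was -0.02, against -0.04 over all genes. Ranges of FPKM did not overlap for 8 of the 10 and for 52.5% of all genes. The 8 include Ctsa, which did not pass and was separated only by 161.41 in PBS replicate 2 against 161.63 in RANKL + Vit D + K replicate 2. Ctsk was 4.06-fold higher than in PBS (log2 2.02 ± 0.31, adjusted p = 0.00134), with mean FPKM 38.7 ± 16.5 (SD, n = 3) against 9.51 ± 2.27. Ctsh was 2.63-fold lower (log2 -1.40 ± 0.24, adjusted p = 0.0021) and Ctss 1.74-fold lower (log2 -0.80 ± 0.17, adjusted p = 0.00602). Ctsl was 1.60-fold higher (adjusted p = 0.0122), Ctsc 1.42-fold (adjusted p = 0.00793) and Ctsz 1.41-fold (adjusted p = 0.0275). The call for Ctsz was lost without PBS replicate 2 (adjusted p = 0.0522) or PBS replicate 3 (adjusted p = 0.0513), and the other 5 passed under every alternative.

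Acp5 did not pass between RANKL + Vit D + K and PBS (log2 -0.32 ± 0.58, adjusted p = 0.687), and 1 library set this value. RANKL + Vit D + K replicate 2 had 1230 counts of Acp5, and the other vitamin libraries had 156 and 239, against 546 to 755 in PBS. Without that library the log2 fold change was -1.60 (adjusted p = 0.00065). The same library had the highest Ctsk of its group. Ctsa, Ctsb and Ctsd had log2 values of 0.19, -0.23 and -0.29 against PBS (adjusted p 0.281, 0.262 and 0.15). For Ctsa the value without RANKL + Vit D + K replicate 2 was 0.30 (adjusted p = 0.0342).

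In level, Ctsd, Ctss, Ctsb and Ctsz stood above the osteoclast pair in every group, while the other general cathepsins did not. By FPKM, which is per length, the order in PBS ran from Ctsd (3504 ± 327), Ctss (2054 ± 60.1) and Ctsb (1222 ± 268) through Ctsz, Ctsa, Ctsl, Ctsh and Ctsc down to Ctsk and Acp5, and no neighbours in it overlapped. In RANKL, Ctsk (297 ± 113) and Acp5 (218 ± 54.9) came after Ctsd, Ctss, Ctsb and Ctsz and before Ctsa, Ctsl, Ctsc and Ctsh. There Ctsd overlapped Ctss, Ctsk overlapped Acp5, and Acp5 overlapped Ctsa. In RANKL + Vit D + K the order was Ctsd, Ctss, Ctsb, Ctsz, Ctsa, Ctsl, Ctsc, Ctsk, Ctsh and Acp5, with overlap between Ctss and Ctsb, Ctsa and Ctsl, and Ctsc and Ctsk.

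The summed FPKM of the 10 genes was 7591 ± 625 in PBS, 6382 ± 517 in RANKL and 6062 ± 233 in RANKL + Vit D + K, or 2.62%, 2.16% and 2.24% of the FPKM of all genes. The exact two-sided permutation test of this sum gave p = 0.1 for RANKL and for the vitamins against PBS, and p = 0.5 for the vitamins against RANKL. Of this sum, Ctsk made up 0.143%, 0.137% and 0.0949% in the PBS libraries, 3.72%, 7.35% and 3.24% in the RANKL libraries, with 0.529%, 0.922% and 0.449% after the vitamins were added. Acp5 made up 0.0572%, 0.0596% and 0.0487% in PBS, 3.30%, 4.67% and 2.44% in RANKL, and 0.0166%, 0.126% and 0.0270% in RANKL + Vit D + K. Of the vitamin libraries, replicate 2 was above every PBS library and the other two were below, so that the mean of 0.0566% became 0.0218% without replicate 2, against 0.0552% in PBS. The share of Ctsk did not overlap between any groups (exact two-sided permutation test, p = 0.1 for each comparison, the smallest that 3 libraries against 3 allow). For Acp5 the same exact test gave p = 0.1 for RANKL against PBS and for the vitamins against RANKL, and p = 1 for the vitamins against PBS with all 3 vitamin libraries. Ctsd made up 46.1% ± 1.59 in PBS, 34.2% ± 1.19 in RANKL and 46.2% ± 1.82 in RANKL + Vit D + K, and Ctss 27.1% ± 1.42, 31.7% ± 4.49 and 19.2% ± 1.71.

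**Figure D3:**
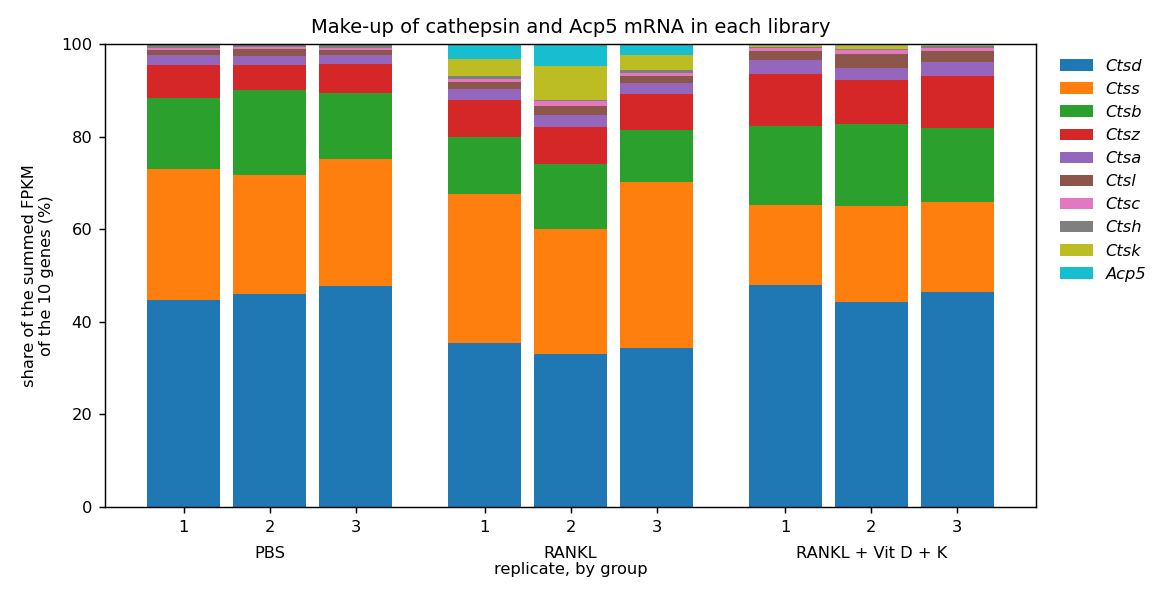
Share of the summed FPKM of the 10 genes (vertical axis, percent) held by each gene in each library (horizontal axis, replicates by group). Ctsk and Acp5 at the top of the bars are visible in RANKL, at 4.77% and 3.47% on average, and Ctss is smallest with the vitamins, at 19.2%.

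Beyond the pair, CACGTG, the E-box core also found in sites of TFEB, TFE3 and USF factors, which act on lysosomal genes, was present in windows of Ctsd, Ctsl and Ctsa. It was in 6.02% of the 32851 windows. The sites are shown with up to 10 bases on each side and CACGTG in capitals (RefSeq, GRCm38.p6) because they occur in 3 of the general cathepsins. They lie 98 and 245 bases before the start of Ctsd (minus strand, chr7:142387910-142387935 and chr7:142388057-142388077), 236 bases before that of Ctsl (minus strand, chr13:64370741-64370766) and 12 bases before a start of Ctsa (plus strand, chr2:164833751-164833776). By the coordinates of the deposited table the farther Ctsd site lies before the gene, and the other 3 sites lie inside it (Ctsd at chr7:142375911-142388038, Ctsl at chr13:64359337-64370890 and Ctsa at chr2:164832873-164840019).
Ctsd, nearer site: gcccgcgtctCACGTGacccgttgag
Ctsd, farther site: tccccCACGTGacctgtatcc
Ctsl: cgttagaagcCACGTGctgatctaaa
Ctsa: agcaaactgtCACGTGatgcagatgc
The windows of Ctsk, Acp5, Ctsc, Ctss and Ctsz and the other window of Ctsa did not hold CACGTG, which says only that these letters are not in those bases.

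Among factors known to act on such genes, Nfatc1, the calcium-regulated factor that drives Acp5 and Ctsk in osteoclasts, was higher with RANKL and lower when the vitamins were added, as the pair was. Its FPKM was 9.92, 9.26 and 9.19 in PBS, 18.7, 21.4 and 14.4 in RANKL, and 6.41, 7.48 and 6.44 in RANKL + Vit D + K. The groups did not overlap, and the log2 fold change was 0.81 (adjusted p = 0.0121) with RANKL and -1.27 (adjusted p = 0.00044) with the vitamins added. The first was lost without PBS replicate 1, PBS replicate 3 or RANKL replicate 1 (adjusted p up to 0.063). Of the 7 transcription factor genes listed, 1 rose and none fell with RANKL, and with the vitamins against RANKL 1 rose (Mitf, log2 0.62, adjusted p = 0.0202) and 2 fell (Nfatc1 and Spi1, log2 -0.46, adjusted p = 0.0318). Against PBS, 3 of 7 were lower with the vitamins (Nfatc1, Spi1 and Tfe3, log2 -0.69, adjusted p = 0.0031). Nfatc1 was then lower than in PBS (log2 -0.46, adjusted p = 0.0171), where Ctsk was higher and Acp5 did not pass. The call of Nfatc1 against PBS was lost in 5 of 18 alternatives (without any of the PBS libraries or without RANKL + Vit D + K replicate 1 or 3), and that of Spi1 in 12. Against RANKL, the call of Mitf was lost in 6 of 18 alternatives and that of Spi1 in 9, each without any of the RANKL libraries, without RANKL + Vit D + K replicate 1 or 3 and with only the 2 groups fitted, and that of Spi1 also without any of the PBS libraries. The medians of the list were -0.07, -0.32 and -0.18 in the 3 comparisons.

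Among the cystatins that block cysteine cathepsins, Cst3 was lower and Cstb higher with the vitamins than in PBS. FPKM of Cst3, the secreted cystatin C, was 409, 377 and 373 in PBS, 419.6, 338 and 392 in RANKL, and 107, 192 and 122 in RANKL + Vit D + K, and it fell with the vitamins by log2 -1.33 against RANKL (adjusted p = 0.00129). FPKM of Cstb, the cytosolic cystatin B, was 210.05, 237 and 192 in PBS, 393, 501 and 336 in RANKL, and 598, 471 and 489 in RANKL + Vit D + K, and it rose by log2 0.81 with RANKL (adjusted p = 0.0371) and by 0.51 with the vitamins (adjusted p = 0.0462). The rise of Cstb with RANKL was lost in 7 of 18 alternatives, each leaving out a library, and that with the vitamins against RANKL in 13 of 18, the replicate block among them (adjusted p = 0.0517), whereas its rise of 1.32 against PBS with the vitamins (adjusted p = 0.000724) held in all. Of 9 inhibitors listed, 5 were in the table and 3 were tested. In the 3 comparisons, 1 rose, then 1 rose and 1 fell, and again 1 rose and 1 fell, with list medians of 0.81, -1.33 and -0.08.

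Receptors and enzymes that sort cathepsins to lysosomes by mannose 6-phosphate, or by sortilin, changed in part. With RANKL, 2 of 6 rose, M6pr (log2 0.53, adjusted p = 0.0481) and Igf2r (log2 0.83, adjusted p = 0.0284), and none fell. Both calls were lost when any PBS or RANKL library was left out, and that of M6pr in 10 of 18 alternatives in all. With the vitamins, Sort1, the gene of sortilin, went from 28.8, 18.5 and 30.2 FPKM in RANKL to 5.88, 15.5 and 8.52, a fall of log2 -1.27 (adjusted p = 0.0126), with no other call among the 6. That call was lost without RANKL + Vit D + K replicate 3 (adjusted p = 0.0539). Against PBS, Igf2r (log2 0.92) and Gnptab (log2 0.50) were higher and Sort1 (log2 -2.35) lower. The call of Gnptab was lost in 7 of 18 alternatives, with the replicate block (adjusted p = 0.0588) and without any of the PBS libraries among them.

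Of 5 genes whose products activate or accompany cathepsins, Glb1, the beta-galactosidase held in a complex with cathepsin A, was lower with RANKL (log2 -0.57, adjusted p = 0.0427, lost in 12 of 18 alternatives, the replicate block among them at 0.0599). Neu1, the neuraminidase of that complex, was higher with the vitamins than with RANKL (log2 0.47, adjusted p = 0.0401, lost in 10 of 18). Against PBS, Psap, Lgmn (legumain, which cleaves procathepsins) and Glb1 were lower with the vitamins, at log2 -0.93, -0.71 and -0.61. The call of Psap was lost without PBS replicate 1 (adjusted p = 0.0503). Of 14 other cathepsin genes listed, 5 were in the table and 4 were tested. Ctse was lower with RANKL than in PBS (log2 -1.86, adjusted p = 0.0121), at mean FPKM 0.64 against 2.15, a call lost without PBS replicate 1 or PBS replicate 3. Ctsf fell with the vitamins against RANKL (log2 -1.93, adjusted p = 0.00101) from 2.92 to 0.70, and both were lower with the vitamins than in PBS. Of 4 other acid phosphatases tested, Acp2, of lysosomes, went from 44.6 ± 2.37 FPKM in RANKL to 22.3 ± 3.14 with the vitamins (log2 -0.86, adjusted p = 0.00108), and none passed between RANKL and PBS. Against PBS with the vitamins, Acp2 was lower (log2 -0.68, adjusted p = 0.00158), whereas Acp1, a cytosolic phosphatase, was higher (log2 0.59, adjusted p = 0.015, lost without PBS replicate 1 or PBS replicate 3).

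**Figure D4:**
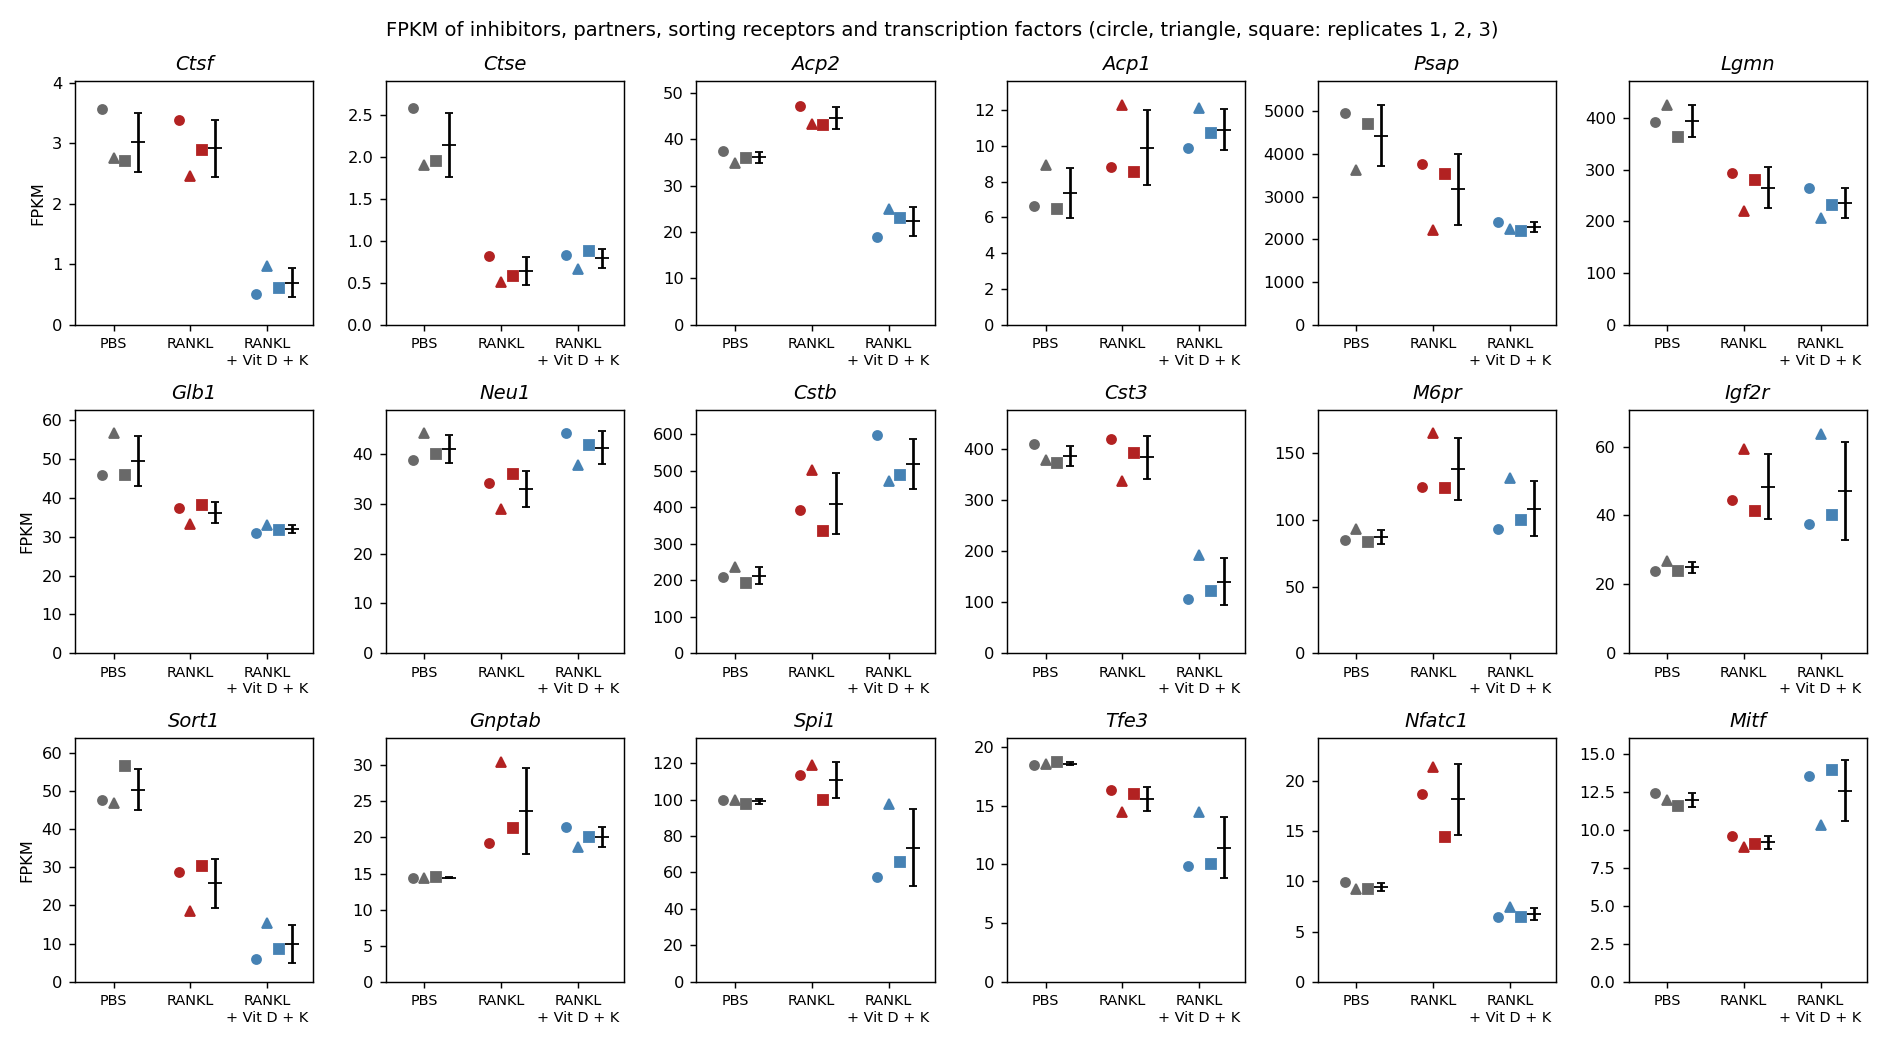
FPKM (vertical axes from 0, a scale for each gene) of 18 genes of other cathepsins, other acid phosphatases, partners, inhibitors, sorting and transcription factors in the 3 groups. Points are libraries (circle, triangle and square for replicates 1, 2 and 3), and bars are the mean ± SD of 3. Nfatc1 is highest in RANKL, Cst3 is low with the vitamins, and Cstb rises from PBS to RANKL + Vit D + K.

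The genes most like Acp5 in log2 CPM (counts scaled to library size) over the 9 libraries were Slc6a13 (Pearson r = 0.994), Cox5a (0.987), Slc25a4, Atp5g3 and Nr1h3 (each 0.986). Those most like Ctsk were Mmp9 (0.995), Sucnr1 (0.994), Cyp2s1 (0.992), Grk3 (0.992) and Acsl1 (0.99). These are descriptions across libraries that share groups and depth. Mmp9, a gelatinase of osteoclasts, had a larger log2 change than Ctsk with RANKL, at 8.81, and was at -5.01 with the vitamins against RANKL. The likeness of Acp5 to Slc6a13 rests on a smaller change, of log2 1.81 with RANKL and -2.07 with the vitamins.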

How the data were processed

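Poly(A) RNA of 9 libraries (3 groups of 3, grouped by their labels) was sequenced as paired-end reads. The submitters' processing notes name cutadapt 1.9, HISAT2 2.0.4, StringTie 1.3.4d and edgeR, and the human build hg38, whereas the coordinates of the table are mouse (25596 of 28294 genes matched equal GENCODE M21, GRCm38). The authors deposited whole-number counts per gene, not normalized, and FPKM values, which they scaled to gene length and library. How reads shared by similar or overlapping genes were counted, and whether strand was used, is not given in the sources used here. The table also holds columns of annotation, which were not tested.

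From these counts, edgeR 4.0.16 (R 4.3.3) was run with filterByExpr on low counts and TMM scaling. All 9 libraries entered 1 model, 17002 of 28379 genes passed the filter, and quasi-likelihood p-values were adjusted by Benjamini-Hochberg over them (threshold 0.05). Standard errors are the log2 fold change divided by the square root of F. The code was tested on simulated data. Means and SDs are of FPKM over 3 libraries. The alternatives were DESeq2 1.42.0, limma 3.58.1 on log2(FPKM + 1) and log2(FPKM + 0.1), other size factors and filters, only the 2 groups compared, a replicate block, and each library left out in turn. Leaving out replicate 2 of every group, and all alternatives for genes of the lists, were added after the data were seen. Deviations from the group means were correlated across genes at 0.122, 0.219 and 0.155 between same-numbered PBS and RANKL libraries. With same-numbered libraries of the vitamin group the correlations were -0.0216 to 0.107. Differently numbered libraries were not compared and the labels state no pairing, so these values do not show whether the numbers mark pairs. The main model held no replicate term, and the replicate block was an alternative.

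The members and the gene lists were chosen with earlier results of these data known. All 10 members are named. From each list at most 4 genes called in any comparison are named, by mean FPKM, and for Acp5 and Ctsk the 5 genes of highest correlation. Depth differs little. The limit of 3 counts covers counting error only, while SEs and SDs hold the spread between libraries.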

Additional observations from a re-analysis of the deposited data

How the results depend on the processing

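The calls of Acp5 and Ctsk between RANKL and PBS and between the vitamins and RANKL, and those of Ctsk, Ctsc, Ctsh, Ctsl and Ctss between the vitamins and PBS, passed under all 18 alternatives. The 2 members higher in RANKL than in PBS became 3, by Ctsc, with only the 2 groups, without RANKL + Vit D + K replicate 2 and without replicate 2 of all groups. The 2 members lower in RANKL than in PBS became 0 with limma on log2(FPKM + 1) or log2(FPKM + 0.1) and 1 with no filter, and 0 to 3 when libraries were left out. The 4 members higher with the vitamins than with RANKL became 1 with either limma fit, 2 with no filter and 2 with only the 2 groups, and 0 to 5 when libraries were left out, while the 4 lower became 2 to 4. Values that changed sign had not passed. The log2 fold change of Ctsz, RANKL against PBS, became 0.0037 with DESeq2, 0.09 with both limma fits (0.0927 and 0.0928), 0.0294 with no filter, 0.02 with at least 10 counts in every library of 1 group (0.0217), 0.02 with only the 2 groups (0.0231), and -0.0891 to 0.0878 with libraries left out. That of Ctss became -0.273 to 0.0686 with libraries left out, that of Ctsc, vitamins against RANKL, -0.01 with both limma fits (-0.0115 and -0.0117), and that of Acp5, vitamins against PBS, -1.60 to 0.15 with libraries left out. The cause was not tested.

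The replicate block changed no member's call between RANKL and PBS (2 higher and 2 lower). With the block, the vitamins against RANKL gave 4 higher and 3 lower, Ctsh no longer passing, and 4 higher and 2 lower against PBS. Over all genes, the 400 higher and 214 lower with RANKL became 1064 and 557 with DESeq2, 1034 and 702 with only the 2 groups, 304 and 122 with no filter, and 96 to 987 and 30 to 931 with libraries left out. With the vitamins against RANKL, 2796 and 2929 became 1934 and 1912 with only the 2 groups and 1578 to 4233 and 1621 to 4719 with libraries left out, and the 3564 lower than in PBS became 2297 to 4782. With limma on log2(FPKM + 0.1) the median over all genes of the log2 fold change, vitamins against RANKL, moved from -0.04 to -0.16. The share of Acp5 in RANKL + Vit D + K went from 0.0566% to 0.0218% without replicate 2 of that group, and that of Ctsk in RANKL from 4.77% to 3.48% without RANKL replicate 2. The recomputation of shares from CPM and gene length was not run, since the deposited table holds no gene lengths. With 3 libraries per group, no exact test can go below p = 0.1.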
